A study of Homo sapiens with 8 samples.

Results

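The nuclear genes of oxidative phosphorylation were followed in SupB15 cells treated with the histone deacetylase inhibitor 1035, with doxorubicin, or with both. A row of the deposited tables was taken when its gene symbol was that of a numbered NDUFA, NDUFB, NDUFC, NDUFS or NDUFV gene, SDHA to SDHD, CYC1, or a gene whose symbol starts with UQCR, COX4 to COX8 or ATP5, and pseudogene symbols were left out. This gave 87 genes under 83 symbols, called members here, of 16608 genes with counts in all libraries. Of these, 75 encode subunits of the complexes: 36 of complex I, 4 of complex II, 9 of complex III, 11 of complex IV and 15 of complex V. NDUFA4 was counted with complex IV, to which its protein belongs despite its name. The other matches were 6 read-through gene models, 1 divergent RNA (NDUFA6-AS1) and 5 associated or paralogous genes (ATP5S, ATP5SL, COX7A2L, ATP5L2 and NDUFA4L2). ATP5L2 was too low to be tested, so 86 genes and all 75 subunits entered the tests.

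SupB15 is an established line of Philadelphia chromosome-positive precursor B cell acute lymphoblastic leukaemia. Total RNA was sequenced from 8 libraries, 2 independent samples for each of 4 treatments: 46 h of the vehicle DMSO, 46 h of 2 µM 1035, 10 h of 0.1 µM doxorubicin, and 36 h of 2 µM 1035 followed by 10 h of 0.1 µM doxorubicin, called the combination here. Doxorubicin is a DNA intercalator that poisons topoisomerase II. The sources used here do not say whether 1035 was still present in those last 10 h, and the combination against 1035 therefore does not separate doxorubicin from an end of exposure to 1035. The doxorubicin and DMSO groups also differ in the length of treatment, 10 h against 46 h, and the effects of agent and time cannot be told apart. All data come from 1 line, and protein and respiration were not analysed here.

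Oxidative phosphorylation takes place in the inner mitochondrial membrane. Complex I passes electrons from NADH, and complex II from succinate, to ubiquinone, and complex III passes them on to cytochrome c, from which complex IV delivers them to oxygen. Complexes I, III and IV pump protons, and complex V, the ATP synthase, uses the gradient to make ATP. Most subunits are encoded in the nucleus and some in mitochondrial DNA, and both sets must be made for complexes I, III, IV and V to assemble, while complex II is wholly nuclear. The transcription factors NRF1 and GABP, an ETS family factor also called NRF2, are known to bind near the start of many of these genes.

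The libraries held 11760542 to 18144670 counted reads, and the 75 subunits took 0.734% to 0.839% of them. Between the 2 samples of a treatment, counts differed by 1.78 to 4.55 times the sampling variance (chi-square per degree of freedom, lowest in DMSO and highest in doxorubicin). Of 12 markers of precursor B cells all had counts, with CD79A and PAX5 among them, and their summed level in CPM, the read count scaled to library size, was 4818 and 4625 CPM in DMSO and 3606 and 3594 CPM with 1035. In 1035 against DMSO 4 of the 12 rose and 7 fell. All 7 listed erythroid and megakaryocyte markers and 8 of 9 T and NK cell markers had no row in the joined table, with CD3E and HBB among those without a row. Myeloid markers (4 of 9 with counts) summed to 20.7 to 23.8 CPM without 1035 and 32.2 to 38.2 CPM with it, and stromal markers (3 of 7) to 28.2 to 30.0 and 56.3 to 73.2 CPM. CPM is relative to the rest of the library, so fewer cells of a kind and less RNA per cell cannot be told apart, and the part of such shifts in the results below was not tested.

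Exposure to 1035 for 46 h was compared with DMSO to ask how the inhibitor changes the transcripts of the 5 complexes. The 75 subunits together stood at 8670.1 and 8549 CPM in DMSO, 7353 and 7325 with 1035, 8333 and 8095 with doxorubicin, and 7423 and 7129 with the combination. All 4 libraries with 1035 lay below all 4 without it, and the mean with 1035 was 14.8% below that of DMSO. In the edgeR quasi-likelihood test at a Benjamini-Hochberg false discovery rate of 5%, 42 of the 75 subunits fell, 1 rose (SDHC) and 32 did not pass. Among all 16320 genes tested, 24.8% fell and 24.2% rose in the same comparison. The median log2 fold change of the subunits was -0.19, against 0.01 for all genes, and 67 of the 75 values were negative. In 41 subunits all 4 libraries with 1035 lay below all 4 without it, as in 24.7% of all genes, and in 2 above (SDHC and UQCR11), as in 24.5%. The falls were small: the largest of a subunit was -0.86 (NDUFB2), and 26 of the 42 stayed past the threshold in each of 17 alternative fits (other scalings, filters and tools, or a library left out). Log2 fold changes are given with their SE. Leaving out the first DMSO library gave the fewest falls of any member, 33 of 86 against 46.

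**Figure D1:**
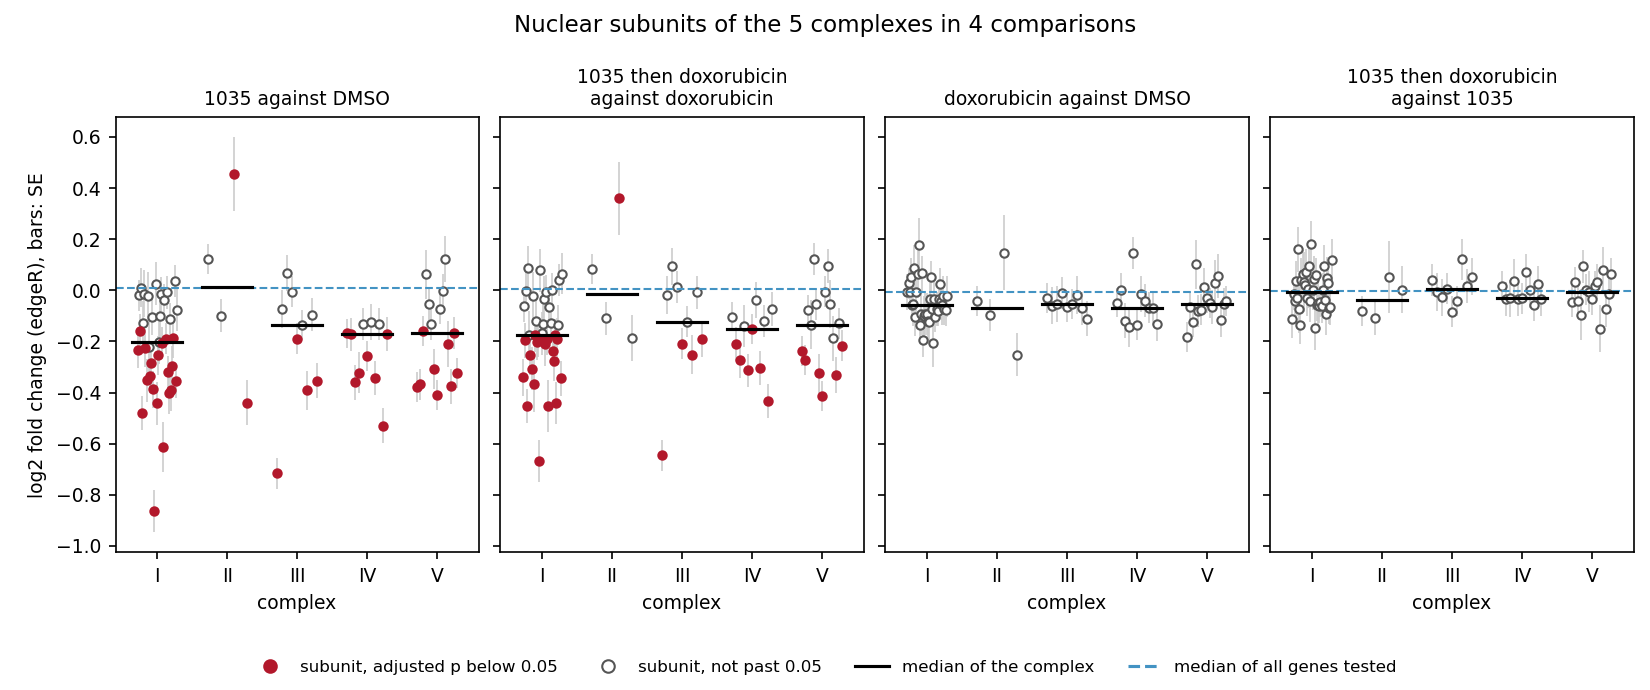
Log2 fold change of each nuclear subunit (edgeR, points with SE) by complex in 4 comparisons; red points passed an adjusted p of 0.05, open points did not, black lines are medians of a complex and the dashed line is the median of all genes tested. Falls fill both comparisons with 1035, where complex II has a median near 0.01 and -0.01, and no subunit passed in the other 2 panels.

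Complexes I, III, IV and V all held subunits that fell, and complex II split. In complex I 20 of 36 subunits fell (median log2 fold change -0.20), in complex III 4 of 9 (-0.13), in complex IV 8 of 11 (-0.17) and in complex V 9 of 15 (-0.17), and none of these rose. Of the 4 genes of complex II 1 rose and 1 fell, with a median of 0.01. Among all genes 24.8% fell and 24.2% rose, and 34.2% to 46.6% fell in the 4 highest deciles by mean CPM. The share of complex III lies within that range, and the shares of complex II are near those of all genes. With upper quartile scaling, which took the median of all genes to 0.07, the medians of complexes III, IV and V were -0.074, -0.11 and -0.11. Summed over its subunits, complex II stood at 329 and 334 CPM in DMSO and 332 and 329 CPM with 1035. Complex V stood at 3065 and 2961 against 2499 and 2456 CPM. SDHA had the most reads in complex II, and ATP5A1 and ATP5B in complex V, so they weigh most in these sums. In CPM per kilobase of gene length, complex II summed to 87.1 and 89.7 in DMSO and 83.6 and 82.4 with 1035. The sums of complex V were 926 and 891 against 759 and 748. The difference between complexes was not tested, and with 4 genes complex II rests on few values.

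**Figure D2:**
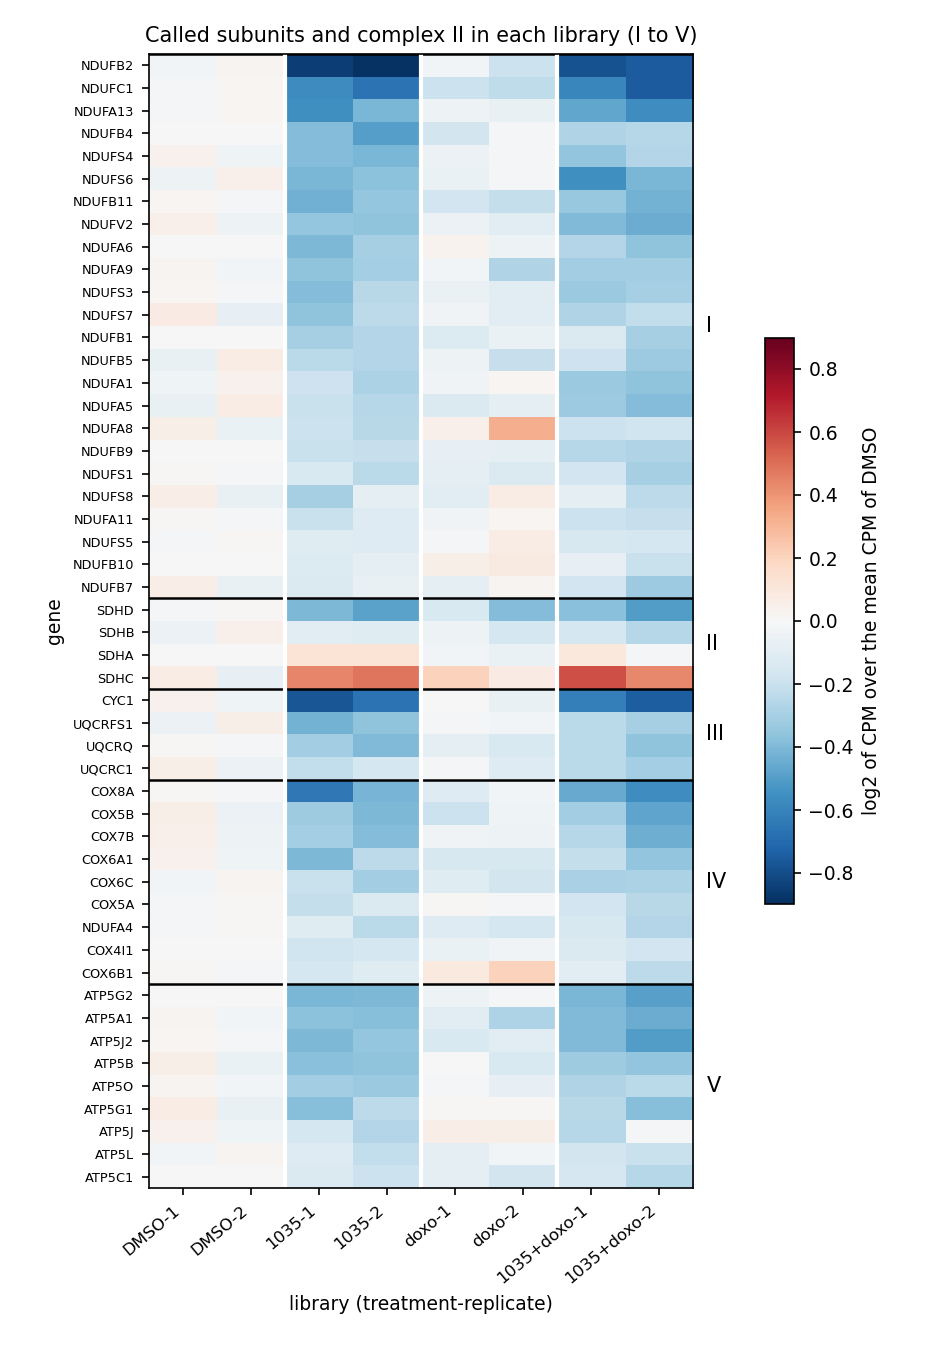
Level of 50 subunits, those past the threshold in either comparison of 1035 with its control and all of complex II, in each of the 8 libraries as log2 of CPM over the mean CPM of DMSO, grouped by complex and ordered within a complex by log2 fold change in 1035 against DMSO. The 4 libraries with 1035 are low for the upper rows of complexes I, III, IV and V, while SDHC of complex II is high in them.

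The starts of these genes were read for the NRF1 motif (GCGCA, any base, then GCGC) and the ETS motif CCGGAAG, on both strands and with overlapping matches counted, in the 250 bases before the first RefSeq start listed (GRCh38.p14, a later build than the hg19 of the counts). A RefSeq promoter matched 61 of the 75 subunits. The NRF1 motif was found before 13 of the 61 (21.3%) and before 5.53% of all 27305 genes with a promoter, and the ETS motif before 16 (26.2%) and 8.82%. The pentamer CCAAT was found before 18 (29.5%) and 33.0%. The 27305 genes were not limited to those with counts in these cells, so the shares among expressed genes were not compared. By call in 1035 against DMSO, the NRF1 motif stood before 8 of 35 subunits that fell and 5 of 26 that did not pass, and the ETS motif before 10 of 35 and 6 of 26. The 6 sequences below are examples picked for their motif content and do not stand for the shares above. Subunits that did not pass and have neither motif, NDUFB3 and COX7C among them, are not shown. They run 5′ to 3′ and end at the base before the start, with NRF1 and ETS matches in capitals. NDUFB2 (chr7:140696458-140696707, plus strand) fell and has neither motif. COX8A (chr11:63974370-63974619, plus strand) fell and has an ETS match beginning 18 bases before the start. UQCRFS1 (chr19:29213152-29213401, minus strand) fell and has an NRF1 match at 31 bases. SDHD (chr11:112086623-112086872, plus strand) fell and has an NRF1 match at 110 and an ETS match at 77 bases. SDHA (chr5:218070-218319, plus strand) did not pass the test and has 4 NRF1 matches, each 49 bases after the one before it; 11 of the 27305 promoters hold 4 or more. UQCR11 (chr19:1605463-1605712, minus strand) did not pass and has 2 NRF1 and 2 ETS matches. A match is a run of letters and not a measured binding site.
NDUFB2: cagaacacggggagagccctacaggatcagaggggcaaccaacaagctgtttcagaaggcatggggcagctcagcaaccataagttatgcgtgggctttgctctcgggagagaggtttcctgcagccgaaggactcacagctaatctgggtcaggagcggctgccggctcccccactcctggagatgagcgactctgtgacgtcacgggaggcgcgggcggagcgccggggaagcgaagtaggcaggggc
COX8A: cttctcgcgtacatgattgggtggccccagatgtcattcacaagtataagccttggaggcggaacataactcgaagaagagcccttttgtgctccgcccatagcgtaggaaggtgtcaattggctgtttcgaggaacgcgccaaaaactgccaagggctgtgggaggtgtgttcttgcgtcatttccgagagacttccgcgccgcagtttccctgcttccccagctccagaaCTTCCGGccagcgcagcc
UQCRFS1: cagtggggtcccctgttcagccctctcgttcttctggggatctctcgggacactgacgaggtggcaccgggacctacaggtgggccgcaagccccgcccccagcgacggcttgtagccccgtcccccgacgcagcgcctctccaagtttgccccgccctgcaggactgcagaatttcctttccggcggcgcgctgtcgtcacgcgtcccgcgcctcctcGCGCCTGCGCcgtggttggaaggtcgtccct
SDHD: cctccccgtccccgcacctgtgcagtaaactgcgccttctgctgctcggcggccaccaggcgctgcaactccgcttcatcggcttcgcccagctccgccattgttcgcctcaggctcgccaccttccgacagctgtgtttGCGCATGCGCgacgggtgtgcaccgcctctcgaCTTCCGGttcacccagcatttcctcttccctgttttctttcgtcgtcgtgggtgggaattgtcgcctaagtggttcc
SDHA: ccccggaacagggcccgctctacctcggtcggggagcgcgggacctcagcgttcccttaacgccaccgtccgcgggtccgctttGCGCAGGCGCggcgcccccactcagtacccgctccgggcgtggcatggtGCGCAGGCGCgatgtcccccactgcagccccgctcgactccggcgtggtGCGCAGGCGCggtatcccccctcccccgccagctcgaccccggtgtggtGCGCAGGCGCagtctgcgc
UQCR11: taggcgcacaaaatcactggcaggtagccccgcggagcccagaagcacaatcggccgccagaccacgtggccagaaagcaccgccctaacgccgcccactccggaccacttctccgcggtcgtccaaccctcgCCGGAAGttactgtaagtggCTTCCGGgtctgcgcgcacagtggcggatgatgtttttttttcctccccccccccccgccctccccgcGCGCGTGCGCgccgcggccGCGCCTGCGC

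Complex I has a matrix arm, which binds NADH and carries the iron-sulphur clusters, and a membrane arm, which pumps protons. Of 16 matrix arm subunits 10 fell, and of 20 membrane arm subunits 10 fell. The core subunits, conserved from bacteria and encoded in the nucleus for the matrix arm, fell for 5 of 7. Of the accessory subunits 15 of 29 fell. Beside these counts, 24.8% of all genes fell, and 34.2% to 46.6% in the 4 highest deciles by mean CPM. The shares of the membrane arm and of the accessory subunits lie near that of the highest decile. Among the core, NDUFV2, a carrier of an iron-sulphur cluster in the NADH-oxidising module, stood at 94.1 and 88.4 CPM in DMSO, 71.8 and 70.9 with 1035, 87.8 and 85.2 with doxorubicin, and 69.3 and 67.0 with the combination. The 4 libraries with 1035 were the lowest (log2 fold change in 1035 against DMSO -0.36 ± 0.07, edgeR adjusted p = 1.99e-05). Its partner NDUFV1, which holds the flavin that accepts electrons from NADH, stood at 203 and 204 CPM in DMSO, 204 and 213 with 1035, 208 and 178 with doxorubicin, and 196 and 202 with the combination. These groups overlap, and the change of NDUFV1 on the log2 scale was 0.03 ± 0.06 (adjusted p = 0.678, edgeR).

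Other core subunits of the matrix arm fell too. NDUFS3 fell (-0.32 ± 0.06, edgeR adjusted p = 3.58e-05), from 138 and 135 CPM in DMSO to 104 and 115 CPM with 1035. NDUFS7, which carries the last cluster before ubiquinone, fell by 0.30 on the log2 scale, although its adjusted p was 0.079 without the first DMSO library. The log2 fold changes of NDUFS1 (-0.19 ± 0.06) and NDUFS8 (-0.19 ± 0.08) passed the test in the full set. Each lost the call in several alternatives, NDUFS1 with adjusted p values up to 0.113 without the second library of 1035, and NDUFS8 up to 0.517 without the first.

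The strongest falls in complex I were in accessory subunits of the membrane arm. NDUFB2 stood at 58.8 and 60.8 CPM in DMSO, 33.3 and 32.3 with 1035, 58.8 and 52.3 with doxorubicin, and 34.7 and 35.6 with the combination. The libraries with and without 1035 did not overlap (log2 fold change -0.86 ± 0.08, edgeR adjusted p = 1.35e-11). Neither motif was found in the 250 bases before its start, nor before NDUFC1 and NDUFS7, which also fell. Of the 61 subunits with a promoter 27 had an NRF1 or ETS match. The exons of NDUFB2 overlap other gene models on both strands, so reads of these could be mixed. NDUFA13, also known as GRIM-19, stood at 105 and 107 CPM in DMSO, 72.3 and 79.7 with 1035, 103 and 101 with doxorubicin, and 76.5 and 72.1 with the combination. It too separated the 4 libraries with 1035 from the others (-0.48 ± 0.07, edgeR adjusted p = 7.21e-08). NDUFC1, a low transcript at 27.5 ± 0.441 CPM in DMSO, fell to 17.9 ± 0.890 CPM (-0.61 ± 0.10, edgeR adjusted p = 1.83e-06, SD, n = 2). NDUFS6, which binds zinc at the foot of the matrix arm, was among the 3 most significant of the complex in the combination against doxorubicin (-0.44 ± 0.08, edgeR adjusted p = 2.29e-05).

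Complex II is succinate dehydrogenase, shared by the respiratory chain and the citric acid cycle. SDHA, the flavoprotein that oxidises succinate, stood at 174 and 173 CPM in DMSO, 189 and 189 with 1035, 171 and 166 with doxorubicin, and 185 and 172 with the combination. Its DMSO and 1035 libraries do not overlap, but the log2 fold change of 0.12 ± 0.06 did not pass (edgeR adjusted p = 0.0780). It passed in 5 of the 17 alternatives, with upper quartile scaling at 0.18 (adjusted p = 0.00711). SDHB, the iron-sulphur subunit, changed by -0.10 ± 0.06 on the log2 scale and did not pass (adjusted p = 0.204, edgeR). Of the 2 membrane anchors, which bind ubiquinone, SDHC was high with 1035 and SDHD low.

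SDHD (ENSG00000204370) stood at 46.5 and 47.0 CPM in DMSO, 35.4 and 33.5 with 1035, 42.4 and 35.6 with doxorubicin, and 35.9 and 33.1 with the combination. With 1035 the level was below that of DMSO in both libraries (-0.44 ± 0.09, edgeR adjusted p = 5.88e-05), while the second doxorubicin library was within the range of the libraries with 1035. SDHC stood at 7.59 and 6.88 CPM in DMSO, 9.79 and 10.1 with 1035, 8.34 and 7.59 with doxorubicin, and 10.8 and 9.75 with the combination. All 4 libraries with 1035 lay above all 4 without (0.46 ± 0.14, edgeR adjusted p = 0.00794), and this was the sole rise among the members in this comparison. SDHC did not pass without the second DMSO library (adjusted p = 0.0813, edgeR) nor in DESeq2 (adjusted p = 0.092). At 3.59 ± 0.248 CPM per kilobase in DMSO (SD, n = 2) it was the lowest of the 75 subunits per length, where SDHB stood at 42.2 ± 2.01, SDHD at 22.0 ± 0.184 and SDHA at 20.7 ± 0.123. SDHA and SDHC have pseudogene copies, and SDHD shares exons with a read-through model and with TIMM8B on the other strand (itself -0.51 ± 0.10), so these counts are uncertain.

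Complex III holds the cytochrome b-c1 machinery. CYC1, cytochrome c1, stood at 269 and 254 CPM in DMSO, 153 and 166 with 1035, 262 and 250.3 with doxorubicin, and 171 and 157 with the combination. Its 4 libraries with 1035 lay far below the others, and it had the smallest p of any member (-0.72 ± 0.06, edgeR adjusted p = 8.97e-13), and no other gene model overlaps its exons in GENCODE v29. UQCRFS1, the Rieske iron-sulphur protein that hands electrons to cytochrome c1, stood at 55.6 and 60.0 CPM in DMSO, 43.1 and 45.0 with 1035, 57.3 and 56.8 with doxorubicin, and 48.8 and 47.0 with the combination. It was lowest in the 4 libraries with 1035 (-0.39 ± 0.08, edgeR adjusted p = 4.66e-05). UQCRQ, a small subunit beside cytochrome b, fell by 0.35 on the log2 scale (edgeR adjusted p = 4.32e-05). Of the 2 large core proteins UQCRC1 had -0.19 ± 0.06 and UQCRC2 -0.13 ± 0.06 as log2 fold change. The first passed (adjusted p = 0.00861, edgeR) and the second did not (0.0560). UQCRC2 passed in 4 of 17 alternatives. UQCRC1 lost its call without the first DMSO library (adjusted p = 0.19) or the first of 1035 (0.0802). UQCR11, a small subunit with both motifs before its start, had a log2 fold change of 0.07 ± 0.07.

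In complex IV, cytochrome c oxidase, all 11 log2 fold changes in 1035 against DMSO were negative. COX8A, a small membrane subunit, stood at 139 and 137 CPM in DMSO, 88.1 and 103 with 1035, 127 and 136 with doxorubicin, and 101 and 93.8 with the combination. The 4 libraries with 1035 were the lowest (-0.53 ± 0.07, edgeR adjusted p = 1.73e-08), and per kilobase COX8A was second among the subunits in DMSO, at 272 ± 2.87 CPM per kilobase, after ATP5B at 323 ± 17.8 (SD, n = 2). COX7B fell from 111 ± 4.78 to 87.2 ± 3.58 CPM (SD, n = 2; -0.34 ± 0.07, edgeR adjusted p = 3.20e-05). COX5B, a zinc-binding subunit on the matrix side, fell to a similar degree, at -0.36 ± 0.07 (edgeR adjusted p = 3.95e-05). COX7A2 did not pass (-0.12 ± 0.07, adjusted p = 0.152, edgeR). Its paralog COX7A2L, a factor that joins complexes III and IV into supercomplexes, stood at 92.1 and 89.0 CPM in DMSO, 98.9 and 94.4 with 1035, 83.1 and 82.0 with doxorubicin, and 100.2 and 92.8 with the combination. All 4 libraries with 1035 lay above the other 4, while the log2 fold change in 1035 against DMSO, 0.09 ± 0.06, did not pass (adjusted p = 0.231, edgeR). NDUFA4 was at -0.17 ± 0.07 and lost its call in 7 of 17 alternatives, with the highest adjusted p of 0.295 without the second library of 1035. NDUFA4L2, its hypoxia-induced paralog, was a low transcript at 6.31 and 4.76 CPM in DMSO and 2.30 and 2.52 with 1035, with the lowest log2 fold change of any member (-1.20 ± 0.23, edgeR adjusted p = 2.43e-05). Its exons overlap SHMT2 on the other strand.

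**Figure D3:**
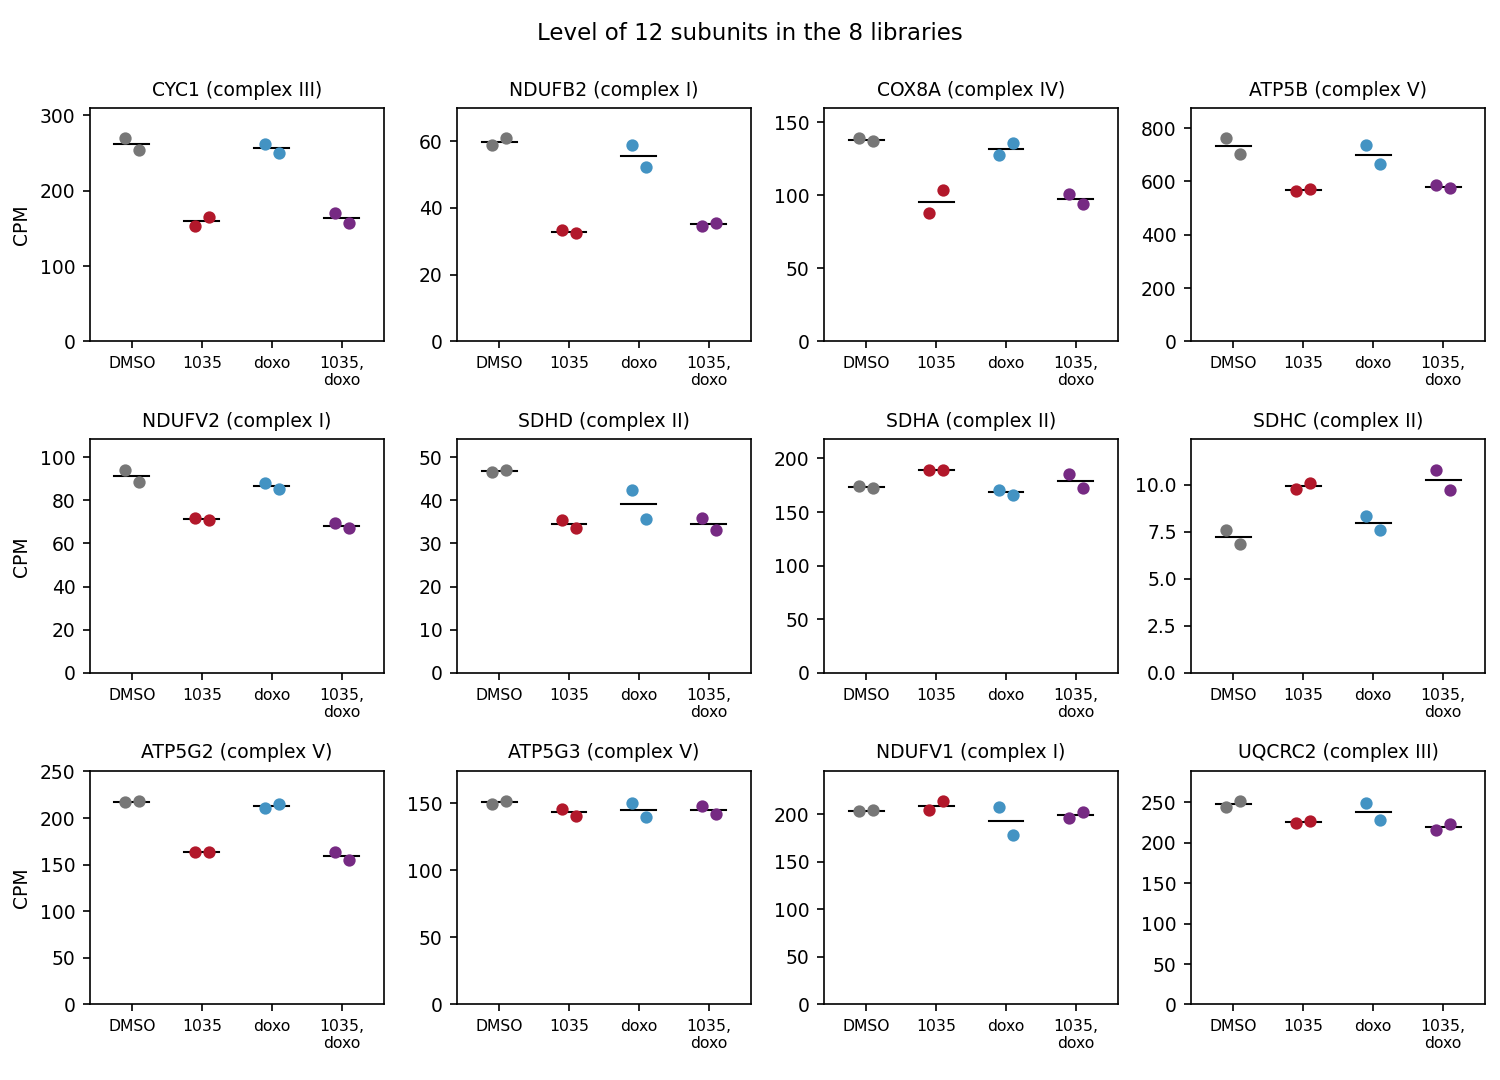
CPM of 12 subunits in the 8 libraries (points) with the mean of each treatment (black line); each panel starts at 0 and has its own scale. CYC1, NDUFB2, COX8A, ATP5B, NDUFV2 and ATP5G2 are low in all 4 libraries with 1035, SDHC is high in them, and ATP5G3 and NDUFV1 overlap between treatments.

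The ATP synthase has a catalytic F1 head, stalks and a membrane rotor, the c-ring. Both genes of the head fell. ATP5B, the catalytic beta subunit, stood at 761 and 704 CPM in DMSO, 565 and 570.5 with 1035, 736 and 665 with doxorubicin, and 586 and 574 with the combination. All 4 libraries with 1035 were below the other 4 (-0.37 ± 0.06, edgeR adjusted p = 1.57e-06). ATP5A1, the alpha subunit, stood at 831 and 800.4 CPM in DMSO, 631 and 625 with 1035, 763 and 674 with doxorubicin, and 620 and 599 with the combination. It also separated, with the second doxorubicin library next above those with 1035 (-0.38 ± 0.06, edgeR adjusted p = 1.10e-06). Of the 3 central stalk genes 1 fell (ATP5C1, -0.16 ± 0.06; adjusted p up to 0.145 without the second library of 1035), and of the 4 peripheral stalk genes 2 fell (ATP5O, -0.32 ± 0.06, and ATP5J, -0.21 ± 0.09). ATP5J lost its call in 11 of 17 alternatives, with adjusted p = 0.253 without the second library of 1035. ATP5J2, the f subunit of the membrane part, fell by 0.38 on the log2 scale (edgeR adjusted p = 1.12e-05) and shares exons with 2 other gene models. ATP5C1, ATP5O and ATP5J lie outside the rule for named genes and are named with their values known. The stalk counts rest on few genes and stand beside 24.8% of all genes, and 34.2% to 46.6% in the 4 highest deciles.

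The c-subunit is encoded by 3 genes that differ in the targeting peptide and give the same mature protein. ATP5G2 stood at 217 and 218 CPM in DMSO, 163 and 164 with 1035, 211 and 215 with doxorubicin, and 164 and 155 with the combination. It was low with 1035 in all 4 libraries (-0.41 ± 0.06, edgeR adjusted p = 1.54e-07). ATP5G1 fell as well (-0.31 ± 0.08, edgeR adjusted p = 9.42e-04), though at an adjusted p of 0.0508 without the first DMSO library. ATP5G3 stood at 149.8 and 151 CPM in DMSO, 146 and 141 with 1035, 151 and 140.1 with doxorubicin, and 148 and 142 with the combination, with overlap between treatments (-0.07 ± 0.06, edgeR adjusted p = 0.345). As a share of the summed c-subunit CPM per kilobase, ATP5G3 made up 21.7% and 22.3% in DMSO, 26.6% and 25.1% with 1035, 22.3% and 20.8% with doxorubicin and 26.2% and 26.6% with the combination. The share was higher in every library with 1035 than in every library without it, and that of ATP5G2 was lower, 50.1% ± 0.446 against 53.9% ± 0.818 (SD, n = 2). The share of ATP5G1 was 24.1% ± 1.47 and 24.1% ± 1.25. The shares were not tested.

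**Figure D4:**
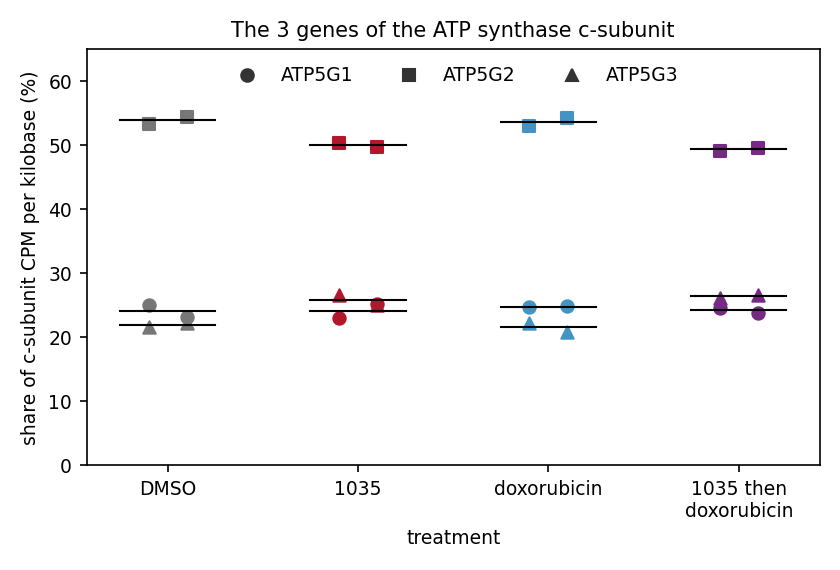
Share of each c-subunit gene in the summed CPM per kilobase of ATP5G1 (circles), ATP5G2 (squares) and ATP5G3 (triangles) in the 2 libraries of each treatment, with means as black lines. ATP5G2 stands at 53.9% in DMSO and 50.1% with 1035, and ATP5G3 stands at 22.0% in DMSO and 25.8% with 1035.

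Read-through models share exons with a subunit and with a neighbour, so their reads are in part those of both. The model listed as UQCR11 with identifier ENSG00000267059, which shares exons with MBD3, stood at a log2 change of -0.46 ± 0.08 (edgeR adjusted p = 2.87e-06), where MBD3 had -0.97 ± 0.07 and the gene UQCR11 itself (ENSG00000127540) 0.07 ± 0.07. ATP5J2-PTCD1 (-0.31 ± 0.08) lay near both of its parts, ATP5J2 and PTCD1 (-0.30 ± 0.07), and passed at 0.00126 but not without the second DMSO library (adjusted p = 0.0624) or the first of 1035 (0.0523). The 4 other models did not pass: those listed as NDUFA7 (-0.05 ± 0.10), NDUFB8 (0.06 ± 0.07) and SDHD (-0.27 ± 0.18), and NDUFC2-KCTD14 (-0.04 ± 0.08). NDUFA6-AS1 was at -0.58 ± 0.25 (adjusted p = 0.0551, edgeR) from 2.36 to 5.49 CPM, and passed as lower in 7 of 17 alternatives. ATP5S, also called coupling factor B, fell (-0.58 ± 0.12, edgeR adjusted p = 1.19e-04), and ATP5SL, an assembly factor of complex I, did not pass (-0.10 ± 0.11). Of the 32 subunits whose exons overlap no other model in GENCODE v29, 16 fell. Of the 43 with an overlap 26 fell and 1 rose. Beside them, 24.8% of all genes fell and 24.2% rose, and 34.2% to 46.6% fell in the 4 highest deciles by mean CPM. The share of the subunits without an overlap lies near that of the highest decile.

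The share of genes called moved with their level. In 1035 against DMSO, 3.13% of the genes in the lowest decile by mean CPM fell and 14.7% rose, and in the highest decile 46.6% fell and 19.4% rose. Of the 75 subunits 67 were in the 4 highest deciles. There 11 of 15, 10 of 17, 10 of 19 and 10 of 16 subunits fell, beside 34.2%, 38.5%, 39.1% and 46.6% of all genes of the same deciles. The medians of all genes in these deciles were -0.05, -0.07, -0.07 and -0.12, and those of the subunits -0.32, -0.19, -0.17 and -0.18. The 5 subunits of the sixth decile did not pass as lower, beside 27.5% of all genes. Gene length, from the authors' counts and FPKM, also moved with the values: the median of the subunits was -0.11 in the shortest decile of length, between -0.22 and -0.16 in the second to the eighth and -0.09 and -0.10 in the longest deciles, where the median of all genes was 0.06 and 0.12. The part of level and length in the result was not tested.

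**Figure D5:**
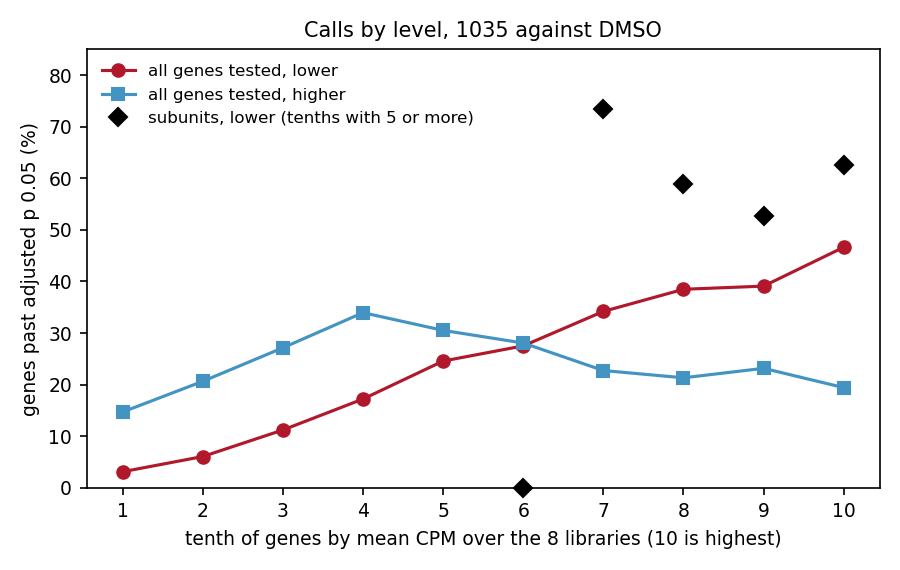
Percentage of all genes tested that fell (red circles) or rose (blue squares) in 1035 against DMSO by decile of mean CPM, and of subunits that fell (black diamonds, deciles with 5 or more subunits). The share of all genes that fell rises from 3.13% to 46.6%, and the diamonds lie above it in the 4 highest deciles and at 0 in the sixth.

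The combination was compared with doxorubicin alone, a comparison that shares no library with 1035 against DMSO, though the libraries share 1 fit of the spread. Here 46 h of treatment in all, 36 h of it 1035 before doxorubicin, stand against 10 h, and the effects of 1035 and of time cannot be told apart. In the combination against doxorubicin 38 of 86 members fell and 2 rose, where 22.0% of all genes fell and 21.8% rose. Of the subunits 35 fell, with a median log2 fold change of -0.17 and 64 of 75 negative values. In the 4 highest deciles of level 7 of 15, 9 of 17, 10 of 19 and 7 of 16 subunits fell. Of all genes in these deciles 29.9%, 31.9%, 34.9% and 41.4% fell, so the subunits of the highest decile lie near the background. By complex 19 of 36 fell in complex I, 0 of 4 in complex II, 4 of 9 in complex III, 6 of 11 in complex IV and 6 of 15 in complex V. For complex II 1 value was past an unadjusted p of 0.05 in the lower direction, and DESeq2 called 0. The 0 of 4 depended on the second doxorubicin library, without which SDHD had a log2 fold change of -0.29. Without the second libraries of both 1035 and doxorubicin, a choice made after the data were seen, SDHD had -0.30 and SDHB -0.16. The 30 subunits lower in both comparisons are 71.4% of the 42 and 85.7% of the 35, and 61 of 75 had negative values in both. Over all genes tested, the 3135 lower in both are 77.4% of the 4049 and 87.2% of the 3596, so the shares of the subunits lie near the background. CYC1 (-0.65 ± 0.06), NDUFB2 (-0.67 ± 0.08), NDUFA13 (-0.45 ± 0.07), COX8A (-0.43 ± 0.07) and ATP5G2 (-0.41 ± 0.06) all fell again, the first with edgeR adjusted p = 1.73e-11. Among the other matches NDUFA4L2 (-1.30 ± 0.25) and the read-through model listed as UQCR11 (-0.53 ± 0.08) fell again. Leaving out the second combination library left 24 falls.

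Some members were past the threshold here and not in 1035 against DMSO. COX6B1, a subunit on the intermembrane side of complex IV, stood at 114 and 113 CPM in DMSO, 102 and 105 with 1035, 121 and 131 with doxorubicin, and 106 and 96.4 with the combination. The doxorubicin libraries were the highest, and its log2 fold change was -0.31 ± 0.06 (edgeR adjusted p = 8.84e-05) here and -0.13 ± 0.06 in 1035 against DMSO. The 2 rises were COX7A2L (0.23 ± 0.06, edgeR adjusted p = 0.00409; 0.101 without the first combination library) and SDHC (0.36 ± 0.14, adjusted p = 0.0372), and SDHC passed in 11 of 17 alternatives only, with adjusted p = 0.229 without the first combination library. In the core, UQCRC1 (-0.21 ± 0.06) and UQCRFS1 (-0.25 ± 0.08) fell, and both lost the call without the second combination library (adjusted p = 0.0861 and 0.0697, edgeR), UQCRC1 also without the first of doxorubicin (0.0543). ATP5J2 (-0.33 ± 0.07), ATP5B (-0.27 ± 0.06) and COX7B (-0.30 ± 0.07) kept it in all 17. Against DMSO the combination had 49 members lower and 1 higher (SDHC), beside 24.7% and 24.5% of all genes; this comparison shares libraries with both others.

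Doxorubicin alone was compared with DMSO. No member passed in the edgeR test (10 of 86 had an unadjusted p below 0.05, smallest adjusted p = 0.116), and DESeq2 called 0; among all genes 0.545% fell and 0.784% rose. The median log2 fold change of the subunits was -0.05, and 60 of 75 were negative. The smallest p was that of ATP5A1 (-0.18 ± 0.06), whose doxorubicin libraries differed, 763 against 674 CPM. SDHD followed (-0.25 ± 0.09, adjusted p = 0.145, edgeR). Leaving out the first doxorubicin library left a single library in that group. The log2 fold changes were then -0.28 for ATP5A1, -0.39 for SDHD, -0.27 for NDUFA9 and 0.21 for COX6B1. The share of all genes called in that fit was not compared. NDUFA9 is named with its value known.

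Doxorubicin added after 1035 gave no member past the threshold either. In the combination against 1035 0 of 86 passed in edgeR (1 with an unadjusted p below 0.05, NDUFB4, named with its value known; smallest adjusted p = 0.724) and 0 in DESeq2, beside 0.147% of all genes lower and 0.349% higher. The median of the subunits was -0.01. In the interaction, which sets the 1035 effect in the presence of doxorubicin against that in its absence and carries the same differences in time, 0 members passed in edgeR (1 unadjusted, again NDUFB4, smallest adjusted p = 0.952) and 0 in DESeq2, beside 3 genes higher (0.0184%) and 0.0% lower of all genes. With a largest SE of 0.20 among the subunits, log2 differences of the size seen here (median 0.05) were not detectable.

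Genes that serve the complexes were given as 11 further lists, to be read against the 24.8% of all genes that fell and 24.2% that rose. By level, 24.6% and 27.5% of all genes fell in the fifth and sixth deciles and 34.2% to 46.6% in the 4 highest. The lists differ in level and were not matched for it. DESeq2 called fewer of most lists. In 1035 against DMSO 8 of 14 assembly factors of complex I fell and 2 rose (median -0.23; DESeq2 6 and 1), led by ECSIT (-0.89 ± 0.10, edgeR adjusted p = 4.42e-09), NDUFAF6 and NDUFAF2, while NDUFAF7, a methyltransferase, and NUBPL, which loads iron-sulphur clusters, rose (0.28 ± 0.09 and 0.31 ± 0.12). None of 3 factors of complex II passed (0 with an unadjusted p below 0.05 in edgeR and 0 in DESeq2). Of 6 factors of complex III 4 fell (median -0.21; 1 in DESeq2), led by C11orf83 (-0.54 ± 0.12), UQCC2 and UQCC1, and of 22 of complex IV 13 fell (median -0.25; 8 in DESeq2), led by COA4 (-0.50 ± 0.08), SCO2, a copper chaperone (-0.85 ± 0.14), and COX20. Of 5 genes for complex V 2 fell (2 in DESeq2): C7orf55 (-0.89 ± 0.14) and ATPIF1, the inhibitor of ATP hydrolysis (-0.25 ± 0.08). The 3 subunits whose symbols the rule missed, NDUFAB1 (-0.31 ± 0.07), USMG5 (-0.28 ± 0.07) and C14orf2 (-0.20 ± 0.08), all fell (2 in DESeq2).

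Of 15 genes for cytochrome c and coenzyme Q synthesis 6 fell (5 in DESeq2), led by CYCS, cytochrome c itself (-0.45 ± 0.06, edgeR adjusted p = 1.81e-07), COQ2 (-0.83 ± 0.12) and PDSS1 (-0.48 ± 0.10). In the citric acid cycle 6 of 14 fell (6 in DESeq2), led by IDH2 (-0.63 ± 0.06) and SUCLG2 (-0.71 ± 0.08). For the citric acid cycle the share that fell is near that of all genes in the highest deciles of level. Its 14 genes summed to 1360 and 1371 CPM in DMSO, against 531 and 528 CPM for the 15 of the other list. In the fifth to seventh deciles (11.8 to 54.6 CPM) 24.6% to 34.2% of all genes fell. Of 26 genes of mitochondrial protein import 16 fell (14 in DESeq2). The falls were led by the chaperonin HSPD1 (-0.68 ± 0.06), TIMM44 (-0.59 ± 0.07) and the outer membrane pore TOMM40 (-0.56 ± 0.07). TIMM22 rose (0.23 ± 0.10, edgeR adjusted p = 0.0461), while DESeq2 called 0 genes of this list higher.

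Regulators of mitochondrial biogenesis fell for 11 of 17 and rose for 1 (median -0.33; DESeq2 10 and 1). GABPA, the DNA-binding part of GABP, stood at 56.4 and 61.4 CPM in DMSO, 32.0 and 32.2 with 1035, 50.9 and 48.6 with doxorubicin, and 30.5 and 28.1 with the combination. The 4 libraries with 1035 were the lowest (-0.87 ± 0.08, edgeR adjusted p = 1.38e-11). GABPB2 (-0.67 ± 0.09) and the coactivator PPRC1 (-0.53 ± 0.07) followed, and the deacetylase SIRT3 rose (0.41 ± 0.11). NRF1, named here because its motif was searched, fell by 0.33 on the log2 scale (edgeR adjusted p = 0.00239), and TFAM, which packages mitochondrial DNA and helps start its transcription, by 0.37. Whether these transcripts bear on those of the subunits was not tested.

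The 13 subunits encoded in mitochondrial DNA differed more between the samples of a treatment than the nuclear ones. Their summed level was 1561 and 1419 CPM in DMSO, 1926 and 2269 with 1035, 1562 and 2396 with doxorubicin, and 1864 and 1646 with the combination. The second libraries of 1035 and of doxorubicin were the highest. In 1035 against DMSO all 13 log2 fold changes were positive (median 0.54), but 0 passed in edgeR (0 with an unadjusted p below 0.05, smallest adjusted p = 0.0995, MT-CO1), and DESeq2 called 1, MT-CO1. MT-CO1, the catalytic subunit of complex IV, stood at 319 and 300.1 CPM in DMSO, 462 and 420.5 with 1035, 377 and 542 with doxorubicin, and 450.1 and 419 with the combination. Without the second libraries of 1035 and of doxorubicin, a choice made after the data were seen, 45 nuclear members fell and 1 rose in 1035 against DMSO.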

How the data were processed

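Per the labels, total RNA was isolated from SupB15 cells, depleted of ribosomal RNA (Ribo-Zero Gold), made into stranded TruSeq libraries and read as single 50-base reads. The submitters' processing notes name Novoalign 2.08.01, hg19 and DESeq2 1.4.5. How reads were assigned to genes, with or without strand and from which annotation, was not given in the sources used here. For this reason the values of overlapping and antisense genes are uncertain.

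The authors deposited 4 tables, each with the raw, whole-number counts of 4 libraries. The FPKM values the authors deposited beside them were used here only with the counts, to recover gene length. Of the log2 fold changes the authors deposited only the sign was used, with the authors' deposited adjusted p-value, to count calls below 0.05 as an alternative. The tables were joined by Ensembl identifier: 17849 genes occurred in any table, 16608 in all, and all 132880 counts held in a pair of tables were equal.

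With edgeR 4.0.16 (R 4.3.3), filterByExpr (minimum count 10) removed 288 genes and left 16320 (TMM scaling). The model was fitted by robust quasi-likelihood to all 8 libraries with 4 group means (4 residual degrees of freedom, median prior 35.6, common biological coefficient of variation 4.57%). P-values are two-sided and Benjamini-Hochberg adjusted over all genes of a comparison. CPM uses TMM library sizes. The fit was tested on simulated data. Alternatives were other scalings (DESeq2 size factors, upper quartile), other filters, no robust prior, a replicate block, fits of only the libraries compared, DESeq2 1.42.0, and leaving out each library.

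Genes named are complex II, core subunits, isoform pairs, matches that are no subunit, the 3 smallest p per complex or list and direction, the 5 smallest p of any comparison, and exceptions marked in the text; a few genes under this rule are not reported here. Members, lists and tests were chosen with earlier results of these data known. Groups came from the labels, per which the 2 samples of a treatment are independent. Replicate numbers were not used to pair samples. Correlations of deviations between equal numbers were 0.415 for 1035 with doxorubicin and ran from -0.136 to 0.0355 for the other pairs of groups. GENCODE v29 served for names and overlaps, matched by identifier for all 87 members, and RefSeq (GRCh38.p14) for promoters, matched by symbol.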

Additional observations from a re-analysis of the deposited data

How the results depend on the processing

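Of the members tested in 1035 against DMSO, between 33 and 52 were lower when any library was left out (46 with all, 33 without the first DMSO library), and 35 with upper quartile scaling, 38 with a mean count of at least 50, 39 in DESeq2 and 43 by the authors' deposited adjusted p. Members higher numbered 3 with upper quartile scaling, 3 with the mean count of at least 50, 2 with only the libraries compared, 0 in DESeq2, 0 in the authors' deposited table and 0 to 2 with a library left out, against 1. In the combination against doxorubicin the authors' deposited table gave 22 lower, against 38, and leaving out a library gave 24 to 38. Members higher there numbered 3 with upper quartile scaling and 3 with the mean count of at least 50 (ATP5E added in both), 1 without both second libraries of 1035 and of doxorubicin (chosen after seeing the data), 1 in DESeq2, 0 in the authors' deposited table and 0 to 2 with a library left out, against 2. In the combination against DMSO 3 were higher with upper quartile scaling, 2 with the mean count of at least 50, 2 with only the libraries compared, 0 in DESeq2 and 0 to 1 with a library left out, against 1. In doxorubicin against DMSO, members were called only when the first doxorubicin library was left out, which leaves a single library in that group. The share of all genes called in each fit was not set beside the counts of this paragraph. Whether the members moved apart from all genes in these fits was not tested.

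Medians in 1035 against DMSO moved with the scaling and the filter. Upper quartile scaling took the median of all genes to 0.07, with complex I at -0.14, II at 0.072, III at -0.074, IV at -0.11 and V at -0.11. With the mean count of at least 50 the median of all genes was 0.0156. The complexes were then at -0.16, 0.059, -0.087, -0.12 and -0.12. With a library left out the medians ran from -0.23 to -0.17 for complex I, -0.01 to 0.03 for II, -0.14 to -0.11 for III, -0.24 to -0.17 for IV and -0.22 to -0.13 for V. The cause was not tested.

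With the replicate number as a block 45 members were lower in 1035 against DMSO, 37 in the combination against doxorubicin and 49 in the combination against DMSO. Per the labels the samples are independent, and the numbers were not taken as pairs in the main fit. For single genes in 1035 against DMSO 1353 values kept direction and call, 78 lost the call and 31 gained it, and in the combination against doxorubicin 1358, 89 and 15; 0 reversed. With 2 libraries a treatment, changes of about the size of the SE were not detectable.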
